A study of Mus musculus with 2 samples.

Results

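The genes described are Bcl2a1a, Bcl2a1b, Bcl2a1c and Bcl2a1d, the 4 copies of the mouse Bcl2a1 gene measured in this series, together with Mcl1 and Bcl2l1. They are 6 of the 27998 gene rows in the deposited tables and were found by their symbols. They were chosen on measured values of these libraries, medial against lateral levels included, so those levels are given as a description, with no test. Every count below is of unique molecular identifiers (UMIs), each of which stands for 1 captured RNA molecule.

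The samples are microglia, the resident macrophages of the brain, taken from the corpus callosum of C57Bl6 mice after 4 weeks on cuprizone. This copper chelator makes oligodendrocytes die, so the tract, the main white matter bridge of the brain, loses its myelin. The medial group is 1 library from the medial part of the tract and the lateral group is 1 library from its lateral part. Both groups share the cuprizone treatment and a genotype written as CX3CR1; the sources used here do not give the allele, the age and number of the mice or the sorting gate. Cells had been released with GentleMACS, sorted by flow cytometry and passed, without culture, to 10x Chromium 3′ library preparation. With 1 library per region the spread between animals is unknown, and each interval below covers counting error only.

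BCL2 family proteins set whether the outer membrane of mitochondria is breached, the step that starts the intrinsic pathway of apoptosis. BCL2A1 (also called A1 or BFL-1), MCL1 and BCL-xL, the long product of Bcl2l1, are pro-survival members that hold BH3-only proteins such as BIM and the pore formers BAX and BAK in check. Bcl2a1 is a known target of NF-kB in activated myeloid and lymphoid cells, and MCL1 is a short-lived protein that many cells must make without pause to survive.

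The 4 copies lie on chromosome 9 and Mcl1 and Bcl2l1 on other chromosomes (GRCm38, GENCODE M21). Bcl2a1d (chr9:88723285-88731914, minus strand), Bcl2a1a (chr9:88956900-88962419, plus strand) and Bcl2a1b (chr9:89199209-89207827, plus strand) have 2 exons and 516 coding nucleotides each. Bcl2a1c stands apart at chr9:114330135-114330578 on the plus strand, with 1 exon and 384 coding nucleotides. Mcl1 is at chr3:95658788-95663176 on the plus strand and Bcl2l1 at chr2:152780668-152831728 on the minus strand. Bcl2a1a and Bcl2a1b are identical at 97.9% of their coding bases (11 differences), Bcl2a1a and Bcl2a1d at 98.6% (7 differences) and Bcl2a1b and Bcl2a1d at 98.8% (6 differences).

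The start of the coding sequence is shown because several of the differences between the copies fall there. These are the first 60 coding bases of each copy, with the 6 positions at which the copies are not all alike in capitals.
Bcl2a1a: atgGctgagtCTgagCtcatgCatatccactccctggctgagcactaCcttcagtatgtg
Bcl2a1b: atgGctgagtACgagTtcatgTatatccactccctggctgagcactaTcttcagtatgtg
Bcl2a1c: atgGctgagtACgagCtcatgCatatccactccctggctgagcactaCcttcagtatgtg
Bcl2a1d: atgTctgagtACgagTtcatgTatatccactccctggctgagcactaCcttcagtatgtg
Near the 3′ end, where this library type reads, the long copies differ less. The coding part of the last exon, 96 bases long, has 1 position at which they differ, in capitals.
Bcl2a1a: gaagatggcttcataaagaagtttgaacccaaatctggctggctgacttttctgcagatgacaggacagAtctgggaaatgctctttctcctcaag
Bcl2a1b: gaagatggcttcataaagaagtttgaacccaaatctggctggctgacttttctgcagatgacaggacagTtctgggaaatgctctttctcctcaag
Bcl2a1d: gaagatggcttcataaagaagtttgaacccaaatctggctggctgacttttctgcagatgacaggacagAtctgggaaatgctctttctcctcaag
A read that covers neither that position nor another difference cannot be assigned to 1 copy.

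The transcript read was 57 nucleotides long, so every 57-nucleotide window of each transcript was set against the other copies. Windows identical to a window of another copy made up 65.0% of Bcl2a1a, 53.5% of Bcl2a1b, 75.8% of Bcl2a1d and 8.25% of Bcl2a1c. Among the last 150 windows before the 3′ end, the share was 62% for Bcl2a1a, 80% for Bcl2a1b, 100% for Bcl2a1d and 0% for Bcl2a1c. Where Bcl2a1a, Bcl2a1b and Bcl2a1d did differ from their closest copy, it was mostly by 1 base: 177 of 763 windows of Bcl2a1a, 330 of 761 of Bcl2a1b and 138 of 807 of Bcl2a1d. Bcl2a1c had 143 of 388 windows with 3 or more differences, 122 with 2 and 91 with 1. Whether misassigned reads of the other, more abundant copies entered the UMIs of Bcl2a1c was not tested. Against all other genes of the annotation, Mcl1 and Bcl2l1 had no shared window. The split of UMIs among Bcl2a1a, Bcl2a1b and Bcl2a1d therefore rests on reads over few positions and is uncertain, and the sum of the copies is given beside each copy. Reads that match several copies can also be lost from the counts, and the sum does not bring these back. How many were lost was not measured, so the summed level and the shares of the copies carry this limit too. Bcl2a1b also shares 401 of the 571 nucleotides of its first exon with Gm29094, a longer annotated gene that had 0 UMIs in cells of both libraries. Bcl2a1d lies within Gm10634, an antisense gene; the sources used here do not say whether the counting used strand.

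**Figure D1:**
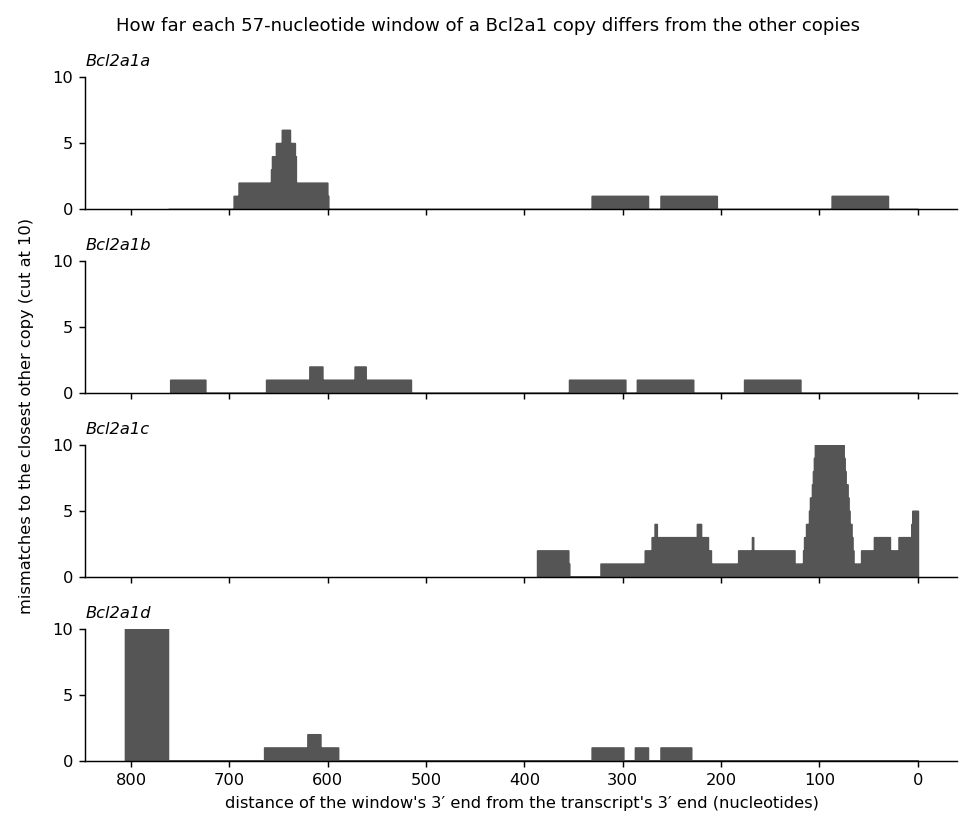
Mismatches between each 57-nucleotide window of a Bcl2a1 copy and its closest match in the other copies (vertical axis, cut at 10), by the distance of the window from the transcript's 3′ end in nucleotides. Stretches at 0 inside a transcript cannot be told from another copy; Bcl2a1d has no difference in its last 150 windows and Bcl2a1c, the shortest transcript with 388 windows, differs over most of its length.

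The copies also share much of the sequence before their start. The bases before the transcribed part are shown, from RefSeq (GRCm38.p6), ending at the first annotated start in RefSeq or GENCODE: chr9:88956670-88956899 for Bcl2a1a, chr9:89199023-89199208 for Bcl2a1b, chr9:114329885-114330134 for Bcl2a1c and chr9:88731915-88732100, minus strand, for Bcl2a1d. Capitals mark TGANTCA, a pattern wider than the AP-1 motif, which has C or G in the N place where these copies have A, and GAGGAAGT, a motif of ETS factors such as PU.1, the lineage factor of macrophages.
Bcl2a1a: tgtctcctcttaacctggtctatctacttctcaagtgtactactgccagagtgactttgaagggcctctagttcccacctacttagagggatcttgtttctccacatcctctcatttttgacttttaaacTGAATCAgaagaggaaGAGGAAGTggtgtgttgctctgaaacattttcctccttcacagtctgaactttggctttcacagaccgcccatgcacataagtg
Bcl2a1b: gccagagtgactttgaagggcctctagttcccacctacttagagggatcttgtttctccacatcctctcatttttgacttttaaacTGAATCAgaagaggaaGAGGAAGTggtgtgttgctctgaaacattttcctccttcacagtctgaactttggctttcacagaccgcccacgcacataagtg
Bcl2a1c: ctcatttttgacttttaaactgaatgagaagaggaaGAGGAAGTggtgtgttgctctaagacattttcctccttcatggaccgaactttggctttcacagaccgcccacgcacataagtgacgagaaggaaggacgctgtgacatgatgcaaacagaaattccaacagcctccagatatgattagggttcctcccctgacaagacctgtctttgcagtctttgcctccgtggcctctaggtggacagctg
Bcl2a1d: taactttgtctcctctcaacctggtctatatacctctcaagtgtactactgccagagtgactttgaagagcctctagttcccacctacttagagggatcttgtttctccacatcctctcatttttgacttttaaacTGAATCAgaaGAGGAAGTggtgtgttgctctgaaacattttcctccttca
Over the 250 bases before each RefSeq start, searched on both strands, GAGGAAGT was in all 4 copies and in 2.44% of 32851 promoters. TGANTCA was in Bcl2a1a, Bcl2a1b and Bcl2a1d and in 6.75% of promoters. The patterns do not overlap in the copies; 9 bases lie between them in Bcl2a1a and Bcl2a1b and 3 in Bcl2a1d. The NF-kB motif was in 1 of the promoters of Bcl2l1 and in 3.90% of all, and TGACGTCA, the CRE motif, was in none of the 6 genes and in 1.55% of all. Between pairs of copies 134 to 244 of the 250 bases were aligned, fewest for Bcl2a1c and Bcl2a1d. Of the aligned bases 94.3% to 99.5% were identical, so the matches of the copies are not independent of each other.

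A barcode counted as a cell with at least 2400 UMIs and at most 10% of them from mitochondrial genes, which gave 2131 medial and 2308 lateral cells with a median of 10732 and 9694 UMIs. Only 7 cell barcodes occurred in both libraries. Levels are UMIs summed over the cells of a library and scaled to a total of 1000000 (CPM); 1 UMI is counted per molecule at its 3′ end, and no value was divided by transcript length. The 10 microglial marker genes summed to 20664.5 CPM in medial and 20749.7 CPM in lateral cells. Neutrophils and mast cells also use Bcl2a1: 5 of 9 neutrophil markers were at 0 UMIs and the list summed to 1.28 CPM in medial and 1.39 CPM in lateral cells, and all 7 mast cell or basophil markers were at 0. The 6 monocyte markers summed to 1.92 and 0.738 CPM and the 7 border macrophage markers to 46.8 and 35.8 CPM in medial and lateral cells.

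All 4 Bcl2a1 copies and Mcl1 had a higher level in the medial library, and Bcl2l1 had a lower one. The difference was far larger for Bcl2a1c than for any other of the 6. For Bcl2a1c, 940 UMIs were counted in medial and 343 in lateral microglia, or 40.1 CPM (95% interval 37.6 to 42.7) against 14.9 CPM (13.3 to 16.5). The ratio of 2.69, a log2 ratio of 1.43 (1.25 to 1.61), placed Bcl2a1c 9th of the 9843 genes with at least 100 UMIs. Bcl2a1d had 208 CPM in medial and 158 CPM in lateral cells, a log2 ratio of 0.39 (0.33 to 0.45). Bcl2a1a had 252 CPM in medial and 211 CPM in lateral cells, a log2 ratio of 0.26 (0.20 to 0.31). Bcl2a1b, which took most of the UMIs of the family, differed least, with 1127 CPM in medial and 1056 CPM in lateral cells and a log2 ratio of 0.09 (0.07 to 0.12).

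The summed copies held 38133 UMIs in medial and 33195 in lateral cells, or 1627 CPM against 1440 CPM, a log2 ratio of 0.18 (0.15 to 0.20). Without Bcl2a1c the ratio was 0.15 (0.13 to 0.18) on the same scale, so the sum moved little with that copy. Mcl1, which guards the same step and turns over fast, had 280 CPM in medial and 227 CPM in lateral cells, a log2 ratio of 0.30 (0.25 to 0.36). Bcl2l1 had 78.0 CPM in medial and 96.2 CPM in lateral cells, a log2 ratio of -0.30 (-0.39 to -0.21).

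At a ratio of 1.2, 3 of the 6 genes were past it on the medial side (Bcl2a1c, Bcl2a1d and Mcl1), as were 7.42% of all genes tested, and Bcl2a1a was just below it at 1.195 and past it under 5 of 11 other settings. Bcl2l1 was past 1/1.2 on the lateral side, as were 7.49% of all genes. The members were picked with these ratios known, so nothing is read from the counts. The median log2 ratio over all 9843 genes was -0.04, and the central 95% of genes lay between -0.40 and 0.47; of the 6 genes Bcl2a1c alone lay outside that range.

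**Figure D2:**
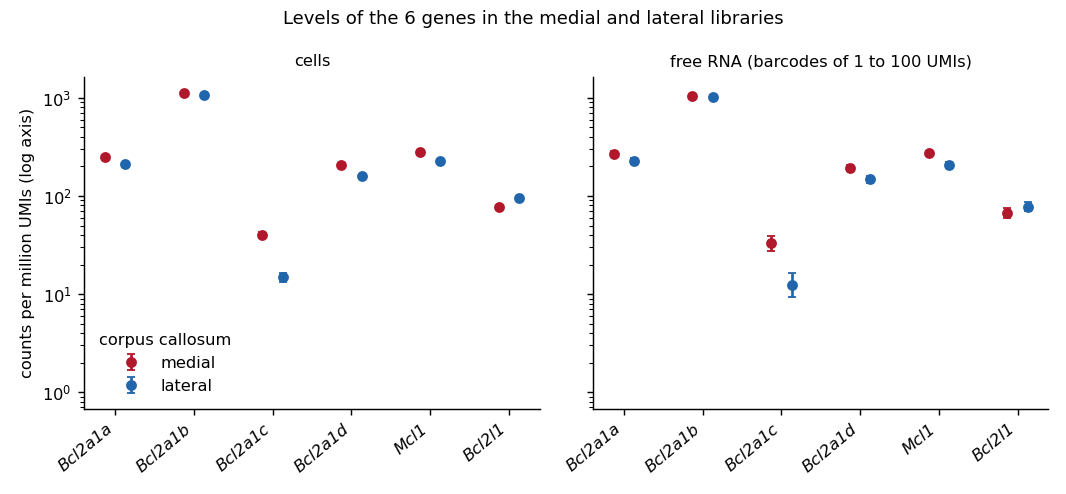
CPM (log axis) of the 6 genes in medial and lateral cells (left) and in free RNA, taken from barcodes of 1 to 100 UMIs (right); bars are exact Poisson 95% intervals. The gap at Bcl2a1c, 40.1 against 14.9 CPM in cells, is the widest in both panels, and Bcl2l1 is the one gene whose lateral value is higher.

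In the free RNA of each library, read in barcodes of 1 to 100 UMIs, each of the 6 genes differed in the same direction as in cells. Bcl2a1c had 32.8 CPM in medial and 12.5 CPM in lateral free RNA. Mcl1 had 273 and 207 CPM, Bcl2a1d 192 and 148 CPM, Bcl2a1a 269 and 228 CPM and Bcl2a1b 1055 and 1025 CPM in medial and lateral free RNA. Bcl2l1 had 66.8 CPM in medial and 78.0 CPM in lateral free RNA. How much free RNA entered each cell was not measured, so a single UMI of these genes does not by itself show that a cell makes them. Subtracting it at 5% of each cell's UMIs gave log2 ratios of 1.43 for Bcl2a1c, 0.30 for Mcl1 and -0.31 for Bcl2l1.

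Of the UMIs assigned to the 4 copies, Bcl2a1b held 69.3% in medial and 73.3% in lateral cells. Bcl2a1a held 15.5% and 14.6%, Bcl2a1d 12.8% and 11.0% and Bcl2a1c 2.47% and 1.03% in medial and lateral cells. The interval of Bcl2a1c ran between 2.31% and 2.63% in medial and between 0.927% and 1.15% in lateral cells. In free RNA the shares of Bcl2a1c were 2.12% and 0.883% in the medial and lateral library. Across the 10 clusters described below, the share of Bcl2a1c was 1.68% to 3.30% in medial and 0.422% to 1.21% in lateral cells. Within a cluster, the intervals of the libraries overlapped in clusters 4 and 9 and in no other. That of cluster 4 ran between 0.806% and 3.06% in medial and between 0.166% and 0.984% in lateral cells. That of cluster 9 ran between 1.23% and 2.84% in medial and between 0.0511% and 1.52% in lateral cells.

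Genes whose 57-nucleotide windows are mostly found in other genes too also leaned to the medial side. A ratio of at least 1.2 was found for 54 of the 189 genes with over 50% of windows shared (28.6%), 11.1% of the 678 genes with over 10% and up to 50% shared, 6.31% of the 3346 genes with up to 10% shared and 6.85% of the 5602 genes with none. Of the 27 matched genes with a ratio of at least 2, 13 had over 10% of windows shared. Bcl2a1c itself is in the group of up to 10%, of which 6 genes reached a ratio of 2. Bcl2a1a, Bcl2a1b and Bcl2a1d are in the group of over 50%. The part of shared sequence in the ratios of the copies was not tested. The labels give the same read length for both libraries; whether both were aligned and counted with 1 index is not stated, and the reads were not analysed here. The protein-coding genes nearest to Bcl2a1c, chosen after their values were seen, had log2 ratios near 0: -0.06 for Crtap, -0.01 for Glb1 and 0.05 for Tmppe. Next to the other copies, Mthfs was at -0.07 and Mthfsl at -0.01.

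Bcl2a1c transcripts were spread thinly over many cells. Before thinning, 31.3% of medial and 12.8% of lateral cells had at least 1 UMI of Bcl2a1c, and the highest cell had 6 in each library. After each cell was thinned to 4000 UMIs, which left out 148 medial and 261 lateral cells, 14.0% of 1983 medial cells (12.5% to 15.6%) and 5.72% of 2047 lateral cells (4.75% to 6.81%) had one. A second UMI was present in 1.26% of medial and 0.342% of lateral cells. The libraries hold no other cell type in number, so no background share of a cell type that lacks the gene can be given.

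Mcl1 had a UMI in 65.8% of medial and 58.1% of lateral thinned cells, and Bcl2l1 in 25.01% of medial and 32.2% of lateral ones. The unthinned shares were 86.9% and 80.6% for Mcl1 and 50.4% and 54.9% for Bcl2l1 in medial and lateral cells. Bcl2a1a was found in 53.8% of medial and 46.6% of lateral thinned cells and Bcl2a1d in 48.7% and 42.4%. Before thinning Bcl2a1a was in 75.1% and 65.4% and Bcl2a1d in 72.4% and 62.1% of medial and lateral cells. Bcl2a1b was in 94.8% of medial and 94.04% of lateral thinned cells, and in 98.3% and 97.1% before thinning.

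Nearly every cell had a Bcl2a1 UMI when the copies were summed: 97.3% of medial and 96.7% of lateral thinned cells had a UMI. The median cell had 5 UMIs of the summed copies in both libraries, the 90th percentile was 12 in medial and 11 in lateral cells, and the highest cell had 37 and 28. The variance over cells was 3.23 times the mean among medial and 3.05 times the mean among lateral cells. For Mcl1 that quotient was 1.17 and 1.18 in medial and lateral cells (counting alone gives 1), and for Bcl2l1 it was 1.12 and 1.06.

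**Figure D3:**
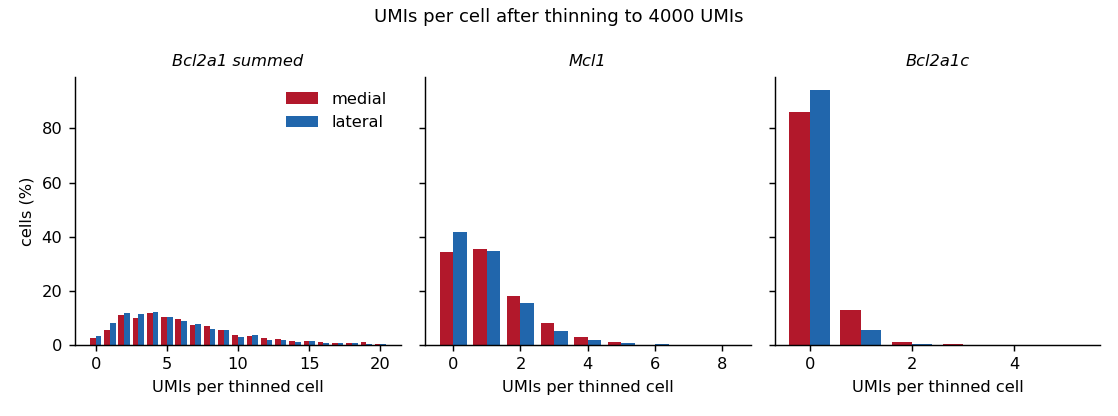
Share of cells (vertical axis, percent) by the number of UMIs of the summed Bcl2a1 copies, Mcl1 and Bcl2a1c after thinning each cell to 4000 UMIs, in 1983 medial and 2047 lateral cells; the summed copies are drawn up to 20 UMIs. Summed Bcl2a1 peaks at 4 UMIs and has a long tail in both libraries, and Bcl2a1c is at 0 in 86.0% of medial and 94.3% of lateral cells.

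Across thinned cells of a library the long copies varied together to a similar extent in both. Pearson's r of log2(UMIs + 1) was 0.30 in medial and 0.32 in lateral cells for Bcl2a1a and Bcl2a1b, 0.27 and 0.26 for Bcl2a1a and Bcl2a1d, and 0.31 and 0.29 for Bcl2a1b and Bcl2a1d (1983 medial and 2047 lateral cells). All pairs share the library and the depth, and misassigned reads of near-identical copies could enter both genes of a pair; this is a description. With Bcl2a1c the other copies gave r of 0.08 to 0.17, and cells that had a Bcl2a1c UMI also held more Bcl2a1b. The mean of Bcl2a1b was 5.73 ± 3.82 UMIs in the 278 medial cells with a Bcl2a1c UMI and 4.20 ± 3.09 in the 1705 without, and 5.92 ± 4.15 in the 117 lateral cells with one and 4.11 ± 3.01 in the 1930 without (SD over cells, which are not replicates). Mcl1 gave r of 0.10 in both libraries with Bcl2a1a, 0.13 in medial and 0.08 in lateral cells with Bcl2a1b, 0.07 in both with Bcl2a1d and 0.03 in both with Bcl2a1c. Bcl2l1 gave at most 0.04 with any of the others.

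Among 4666 genes with at least 1000 UMIs, 6 were taken as most like the summed copies across cells, by the lower r of both libraries. Cd83, a surface protein of activated antigen-presenting cells, had r of 0.36 in both libraries, and Cd14, the lipopolysaccharide co-receptor, had r of 0.35 in both. The cytokine genes Il1a (0.34 in medial, 0.33 in lateral) and Il1b (0.34 and 0.30), Nfkbiz (0.29 and 0.32), which encodes the nuclear NF-kB cofactor IκBζ, and Btg1 (0.31 and 0.23), an antiproliferative gene, followed. Over all 4666 genes the 99th percentile of r with the summed copies was 0.14 in both libraries. For Mcl1 that percentile was 0.09 in both and the leading values were lower too: Jund, an AP-1 subunit gene, led with 0.19 in medial and 0.22 in lateral cells, ahead of Cd83 (0.18 and 0.17), Nfkbiz (0.16 and 0.16), Il1a (0.16 and 0.15), the chemokine gene Ccl4 (0.14 and 0.15) and Btg1 (0.19 and 0.14). For Bcl2l1 the percentile was 0.06 in both, and the 6 most alike had r of only 0.06 to 0.12, no finding in counts this sparse.

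Cells of both libraries were clustered together without the 6 genes, which gave 10 clusters, each named here by number and by its 3 leading genes. Cluster 0 was led by Fn1, Crybb1 and Slpi, cluster 1 by Gpnmb, Cd5l and Ms4a7, cluster 2 by the MHC class II genes Cd74, H2-Aa and H2-Eb1, and cluster 3, whose median cell had 6002 UMIs, by Actb, Slc39a1 and Bmp2k. Cluster 4 was led by Lag3, Slc2a5 and Crybb1, cluster 5 by the DNA replication genes Ung, E2f1 and Mcm6, cluster 6 by Ccnb2, Cenpa and Hist1h1c and cluster 8 by Top2a, 2810417H13Rik and Ube2c, all of dividing cells or histones. Cluster 7 was led by the immediate early genes Fos, Jun and Egr1, and cluster 9, the smallest with 48 medial and 27 lateral cells, by the interferon-induced genes Ifit3, Rsad2 and Ifit1. Microglial markers made up 186 to 273 of every 10000 UMIs in each cluster, and the highest value of another cell type's list was 1.74, for endothelial markers in cluster 9.

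The summed Bcl2a1 copies varied 3.24-fold between clusters on the mean of both libraries, and 1.78-fold with coarser clusters at Leiden resolution 0.3. They were highest in cluster 2, with 2309 CPM in medial and 2108 CPM in lateral cells. Cluster 9 came next in medial cells with 2101 CPM; its lateral level of 1636 CPM, from 27 cells, was near the 1672 CPM of cluster 0. They were lowest in cluster 4, whose leading genes include P2ry12 and Siglech of resting microglia after the first 3, with 658 CPM in medial and 706 CPM in lateral cells. P2ry12 was also among the leading genes of cluster 0 after its first 3, where the summed copies had 1688 CPM in medial and 1672 CPM in lateral cells. Bcl2a1a ranged most of the long copies, 6.60-fold (2.49-fold at resolution 0.3 and 5.04-fold at 1.0): it had 463 and 416 CPM in cluster 2 and 63.97 and 69.3 CPM in cluster 4 in medial and lateral cells. Between these ends the order was not firm: clusters 0, 6 and 3 had 1688, 1604 and 1597 CPM in medial and 1672, 1623 and 1445 CPM in lateral cells.

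Mcl1 was highest in cluster 7, with 346 CPM in medial and 297 CPM in lateral cells, and next in cluster 2, with 327 and 291 CPM. It was lowest in cluster 4, with 157 CPM in medial and 134 CPM in lateral cells, a 2.21-fold range of cluster means. Bcl2l1 varied least between clusters, 1.53-fold, with 109 CPM in cluster 7 and 71.2 CPM in cluster 0 on the mean of both libraries. Bcl2a1c had 57.8 CPM in medial and 25.6 CPM in lateral cells of cluster 2, and 11.0 and 3.198 CPM in cluster 4.

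The higher medial level of Bcl2a1c was found in 10 of 10 clusters, with log2 ratios of 1.08 to 2.55, and in 12 of 12 at resolution 1.0, with 0.93 to 2.59. The value of 2.55 (0.54 to 5.67), in cluster 9, rests on 24 medial and 2 lateral UMIs. Mcl1 was higher in medial cells in 10 of 10 clusters (0.07 to 0.55) and Bcl2a1d in 10 of 10 (0.05 to 0.45). The summed copies and Bcl2a1a were each higher in medial cells in 7 of 10 clusters, with log2 ratios of -0.10 to 0.36 and -0.12 to 0.66, and Bcl2a1b in 5, with -0.14 to 0.25. Bcl2l1 was lower in medial cells in 9 of 10 clusters, with log2 ratios of -0.61 to 0.01. The counting interval of the log2 ratio held 0 in 3 of 10 clusters for Mcl1, 6 for Bcl2a1d and 5 for Bcl2l1. It held 0 in 5 of 10 for the summed copies, 8 for Bcl2a1a, 6 for Bcl2a1b and 0 for Bcl2a1c. The members were chosen on the same contrast, so these counts are a description.

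The difference of the long copies was smaller when clusters were weighted alike. With the same cluster weights in both libraries, an alternative added after the data were seen, the log2 ratio of the summed copies was 0.08 in place of 0.18, that of Bcl2a1a 0.09 in place of 0.26 and that of Bcl2a1b 0.01 in place of 0.09. Mcl1 came to 0.21, below a ratio of 1.2, Bcl2a1d to 0.29, Bcl2a1c to 1.33 and Bcl2l1 to -0.33.

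**Figure D4:**
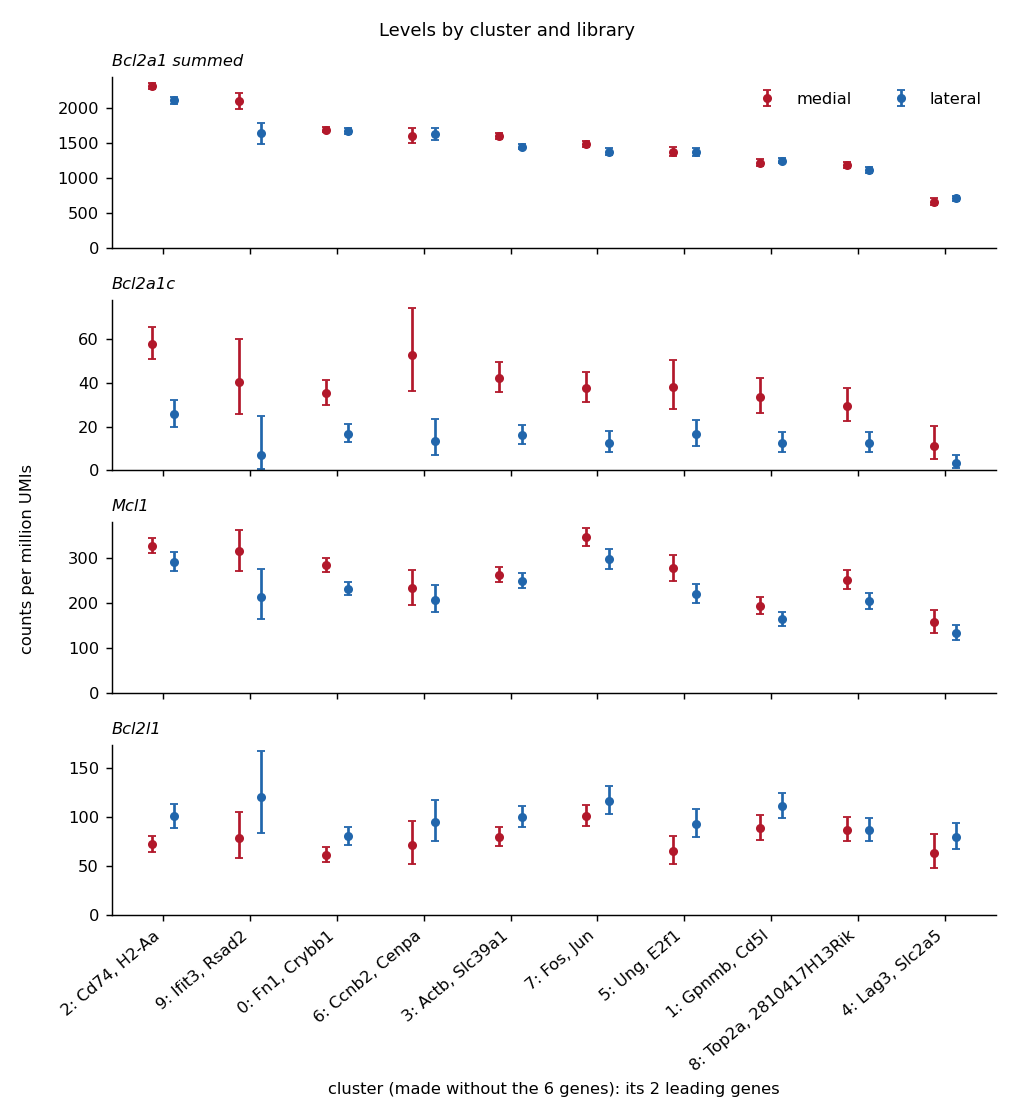
CPM of the summed Bcl2a1 copies, Bcl2a1c, Mcl1 and Bcl2l1 in medial and lateral cells of each cluster, ordered by the summed copies; bars are exact Poisson 95% intervals. Summed Bcl2a1 runs between 2309 CPM (cluster 2, medial) and 658 CPM (cluster 4, medial), and Bcl2a1c is higher in medial cells in 10 of 10 clusters.

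Immediate early genes, which enzymatic or mechanical release of cells can switch on, were also higher in the medial library. The 21 genes of that list took a median of 0.525% of UMIs per thinned medial cell and 0.425% per lateral cell. Cells of both libraries were therefore cut into 3 strata of near equal size by that share. Bcl2a1c had log2 ratios of 1.45, 1.33 and 1.34 in the low, middle and high stratum, and Bcl2a1d had 0.40, 0.33 and 0.34. Mcl1 had 0.20, 0.31 and 0.15, and its level went up with the stratum in both libraries: 199, 288 and 331 CPM in medial and 173, 233 and 298 CPM in lateral cells. Bcl2l1 had -0.19, -0.38 and -0.43. Bcl2a1a had 0.08 (-0.04 to 0.19), 0.22 and 0.22, and Bcl2a1b had 0.05, 0.04 and 0.05, below its 0.09 over all cells. The summed copies had 0.12, 0.13 and 0.13, below the 0.18 of all cells, and were highest in the middle stratum, with 1823 CPM in medial and 1668 CPM in lateral cells. The values over all cells also include cells under 4000 UMIs, which the strata leave out. After thinning, the cells of the strata together gave 0.07 for Bcl2a1b and 0.15 for the summed copies.

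Genes of the apoptosis machinery that act beside the 6 were set beside them. Of 40 such genes on 7 lists, 34 had at least 100 UMIs; 1 of these was past a ratio of 1.2 on the medial side, where 7.42% of all genes were, and 2 were past 1/1.2 on the lateral side, where 7.49% were. The count of 3 became 8 after thinning and 6 with each cell counted alike or without cluster 7. The median log2 ratio of the 34 was -0.03, against -0.04 over all genes. The medial one was Bcl2l11, which encodes BIM, the BH3-only ligand that all of these pro-survival proteins bind; it had 57.7 CPM in medial and 48.0 CPM in lateral cells, a log2 ratio of 0.27 (0.15 to 0.38), a ratio of 1.202. The lateral ones were Bid, a BH3-only gene whose product caspase-8 cleaves, at -0.29 (-0.45 to -0.13), and Fadd, the adaptor of death receptors, at -0.48 (-0.74 to -0.22).

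The most counted gene of each list stayed within a ratio of 1.2. Pmaip1, which encodes NOXA, a BH3-only protein that binds MCL1 and A1, had a log2 ratio of 0.22, with 78.8 CPM in medial and 67.5 CPM in lateral cells. Bax, the pore former, was at -0.06 (273 and 284 CPM), and Bcl2, the founding pro-survival member, at -0.22 (22.1 and 25.8 CPM). Cflar, a caspase-8 inhibitor and NF-kB target, was at 0.19 (152 and 133 CPM), Cycs, which encodes cytochrome c, at -0.18 (143 and 161 CPM), Bnip3l, a mitophagy receptor, at -0.08 (165 and 175 CPM) and Usp9x, which stabilises MCL1, at 0.15 (51.0 and 45.9 CPM), with medial before lateral CPM. Bcl2l10 had 0 UMIs in both libraries.

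The NF-kB and immediate early lists leaned to the medial side. Of 20 NF-kB subunits, inhibitors and targets, 12 had a ratio of at least 1.2 (7.42% of all genes did) and 0 had one of at most 1/1.2 (7.49% of all genes), with a median log2 ratio of 0.33. The chemokine gene Cxcl2 had 802 CPM in medial and 482 CPM in lateral cells (0.73), Traf1 5.63 and 3.47 CPM (0.70), Ccl3 1107 and 767 CPM (0.53) and Ccl4 2007 and 1400 CPM (0.52). Of 20 immediate early genes with at least 100 UMIs, 15 had a ratio of at least 1.2 and 1 had one of at most 1/1.2, against the same 7.42% and 7.49%, with a median log2 ratio of 0.39. Egr1 (0.69), Hspa1a (0.63), Dnajb1 (0.57) and Fosb (0.57) were farthest from 0, the most counted, Junb, was at 0.07, and Klf2, named after its value was seen, was the 1 on the lateral side at -0.33. These lists leaned to the same side as the copies and Mcl1, though Bcl2a1b was at only 0.09. In cluster 7, highest in immediate early genes, the summed copies had 1480 CPM in medial and 1372 CPM in lateral cells. Over all cells the summed copies had 1627 and 1440 CPM. The part of the lists in the ratios of the copies and Mcl1 was not tested.

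**Figure D5:**
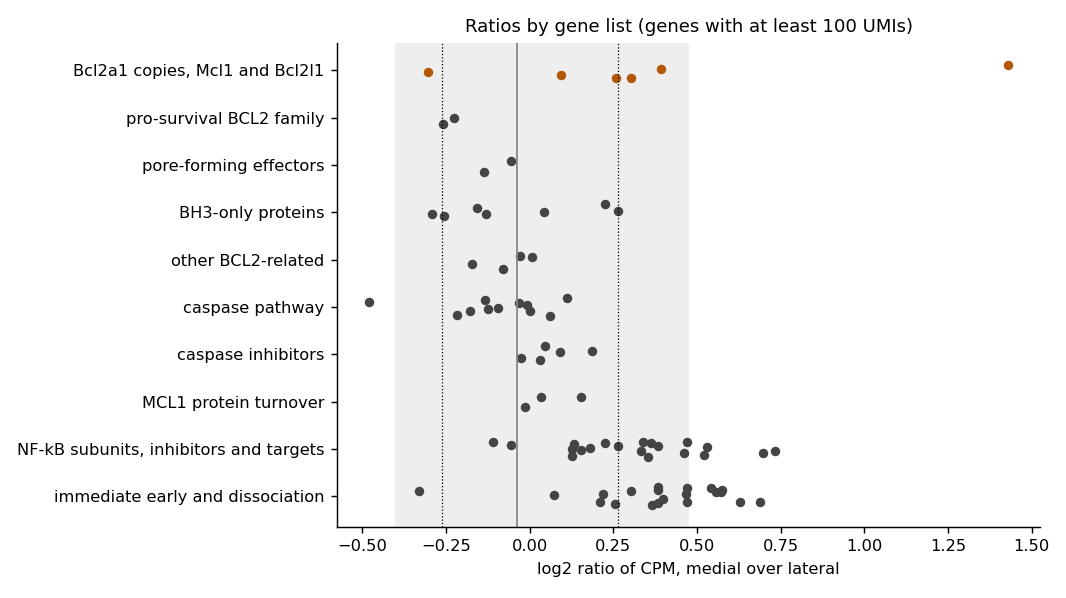
Log2 ratio of CPM, medial over lateral, of the 6 genes (top row) and of the genes of each list with at least 100 UMIs; the grey band holds the central 95% of 9843 genes, the solid line their median of -0.04 and the dotted lines a ratio of 1.2 in either direction. Bcl2a1c, at 1.43, lies outside the band, and 12 of 20 NF-kB genes lie right of the dotted line, as does 1 of 34 apoptosis genes.

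Levels at the edge of the cell limit were as follows. Just above it, in barcodes of 2400 to under 3000 UMIs, Bcl2a1b had 984 CPM in 50 medial and 722 CPM in 85 lateral barcodes, and Mcl1 had 233 and 229 CPM. Just below it, in barcodes of 1800 to under 2400 UMIs, Bcl2a1b had 763 CPM in 44 medial and 580 CPM in 48 lateral barcodes, and Mcl1 had 226 and 167 CPM. Bcl2a1c had 4 UMIs in medial and 1 in lateral barcodes just above the limit, and 1 and 0 just below it, too few for a comparison.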

How the data were processed

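Microglia of 1 medial and 1 lateral corpus callosum library were profiled with 10x 3′ chemistry. The authors deposited whole-number UMI counts per gene and barcode, not normalised, for 27998 gene rows and 737280 barcodes per library; per the submitters' processing notes the tools were STAR and Cell Ranger 2.0.1 with mm10, and the sources used here give no annotation version. Libraries held 28660496 medial and 27955414 lateral UMIs, of which 81.8% and 82.4% were in cells; 3 barcodes per library were over the mitochondrial limit. UMIs of 56 symbols with several gene IDs were summed.

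Counts were summed over cells and scaled to CPM, with exact Poisson 95% intervals; ratios have exact conditional binomial and shares exact Clopper-Pearson intervals (scipy 1.17.1), all for counting error only. The ratio code was tested on simulated data. With 1 library per region no test was run. Clustering used scanpy 1.11.5 (counts per 10000, log1p, 2000 variable genes, 30 components, 15 neighbours, Leiden resolution 0.6). Scrublet, at an expected rate of 0.05, marked 5 barcodes in each library; these were kept, and a doublet of 2 microglia can escape it.

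The members, gene lists and tests were chosen with earlier results of these data known. Named by rule were the 6 members; of each list the genes with at least 100 UMIs past a ratio of 1.2, up to the 4 farthest, and the most counted one; the 6 genes most like the summed copies and Mcl1; and the 3 leading genes of each cluster. For Bcl2l1 the same likeness ranking was run and its genes are not named. Windows came from GENCODE M21 transcripts only, so unannotated genome sequence was not searched. Alternatives varied the cell limits, doublets, weighting, thinning, centring, free RNA, the CPM total and the clustering resolution.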

Additional observations from a re-analysis of the deposited data

Results flagged for a closer look

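Barcodes of 500 to under 1800 UMIs were in no main comparison. Those with at least 1000 UMIs entered only the alternative with that minimum per cell, if within the mitochondrial limit. Barcodes of the whole range still held reads of the members above the level that 3 counts give (15.045 CPM over 210 medial and 15.9 CPM over 204 lateral barcodes). Bcl2a1b had 547 CPM in medial and 588 CPM in lateral barcodes of this range. Bcl2a1a had 85.3 and 132 CPM, Bcl2a1d 115 and 84.7 CPM, Mcl1 171 and 127 CPM and Bcl2l1 70.2 and 79.4 CPM in medial and lateral barcodes. Bcl2a1c was at 3 UMIs in medial and 1 UMI in lateral barcodes and did not pass that level.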

How the results depend on the processing

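Of 77 alternative values of the log2 ratios of the 6 genes and the summed copies, 68 stayed within the counting interval of the reported value, 9 moved out of it and 0 changed sign. Over the 11 alternatives Bcl2a1c ranged between 1.33 and 1.51 and Bcl2l1 between -0.39 and -0.27. With the same cluster weights in both libraries, added after the data were seen, the log2 ratio was 0.092 for Bcl2a1a, 0.014 for Bcl2a1b, 0.29 for Bcl2a1d, 0.21 for Mcl1 and 0.081 for the summed copies. Thinning to 4000 UMIs gave 0.067 for Bcl2a1b and 0.15 for the summed copies, and centring on the median gene gave 0.13 and 0.21. Bcl2a1a, just below a ratio of 1.2 as reported, was past it under 5 of the 11 alternatives: centring (0.29), thinning (0.28), each cell counted alike (0.28), totals without mitochondrial, ribosomal protein and immediate early genes (0.28) and, added after the data were seen, without the cluster highest in immediate early genes (0.28). The count of apoptosis genes past a ratio of 1.2 was 3 as reported, 6 with each cell counted alike, 8 after thinning, 6 without the cluster highest in immediate early genes (added after the data were seen), 5 with a minimum of 1 UMI per library and 0 at a ratio of 1.5. The range of the summed copies between clusters was 3.24-fold, and 1.78-fold at Leiden resolution 0.3 and 2.95-fold at 1.0. The shares of the copies kept within their intervals with at least 5000 UMIs per cell. The cause of these shifts was not tested. No paired analysis was possible because each region has 1 library. Depth limits Bcl2a1c most, with 343 UMIs over all lateral cells.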

Other observations

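The genes that stood next to Bcl2a1c when all 9843 genes were ordered by their medial over lateral ratio were of a mixed kind, and were looked at after their values were seen. Gm11175 was first with 8.02 CPM in medial and 1.26 CPM in lateral cells (log2 ratio 2.67) and 0% of its 57-nucleotide windows shared with another gene, followed by AY036118 with 32.7 and 10.2 CPM (1.68), a gene with 100% of windows shared. Gm26916, the third, had 4.91 CPM in medial and 1.56 CPM in lateral cells (1.65) with 0.676% shared. Hist1h2ap, a replication-dependent histone gene with 93.0% of windows shared, had 10.1 CPM in medial and 3.34 CPM in lateral cells (1.59). Rpl23a, the ribosomal protein gene that came right after Bcl2a1c, had 339 CPM in medial and 127 CPM in lateral cells (1.41) with 49.2% of windows shared, and Rpl27, another, had 134 and 57.2 CPM (1.22) with 23.1% shared. Below Bcl2a1c, Glra1 (1.28), C3 (1.202) and Hps6 (1.17) had 0% shared. The part of shared sequence in these ratios was not tested.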
